A study of Mus musculus with 12 samples.

Results

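The genes described are 10 members of the MHC class II pathway of the mouse, read outside B cells. They are the alpha and beta chains H2-Aa, H2-Ab1 and H2-Eb1, the invariant chain Cd74, the peptide exchange chains H2-DMa, H2-DMb1 and H2-DMb2, the DO chains H2-Oa and H2-Ob, and the transactivator Ciita. All 10 were found in the gene expression matrices, each on 1 line. They were read in macrophages, endothelial cells, lymphatic endothelial cells, fibroblasts and smooth muscle cells of the aorta, with B cells of the same libraries beside them. Of 34263 cells kept, 10716 fell into these 5 gates outside B cells.

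The study asked what methazolamide (MTZ), a carbonic anhydrase inhibitor, does to the cells of the atherosclerotic (AS) aorta. All 4 groups are labelled as ApoE-/- mice, which lack the lipid carrier apolipoprotein E. By the methods of the study they were male, of the C57BL/6J strain, and feeding began at 8 weeks of age and lasted 24 weeks. Mice labelled Healthy ate normal chow and were given saline, while AS mice were given saline on food holding 1% cholesterol and 10% fat. The MTZ-treated mice ate the AS food and received MTZ (25 mg/kg) in the final 12 weeks, and the MTZ-preventive mice received the same dose throughout. The labels write methoxazolamide where the study's methods write methazolamide. Each group gave 1 gene expression library from 6 pooled aortas, so the variation from mouse to mouse is not known and groups were not tested against each other. Values in parentheses are 95% limits of counting error alone.

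Apoe did not follow the labels. It stood at 691 CPM (UMIs, the molecule counts of the assay, scaled to a total of 1e6) in the library labelled Healthy, and at 8.42 to 12.4 CPM in the other 3 libraries. Each comparison with that library is therefore also one between different amounts of Apoe RNA. The 4 libraries kept 11121, 2160, 6796 and 14186 cells in the order Healthy, AS, MTZ-treated and MTZ-preventive, at medians of 1299 to 1892 UMIs per cell, and any pair of them shared 3.01 to 3.68% of the barcodes of the smaller one.

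MHC class II molecules present peptides from outside the cell to CD4+ T cells. An alpha and a beta chain are assembled on the invariant chain, which blocks the groove until it is cut away, and the DM molecule then exchanges its last fragment for a peptide while the DO molecule restrains DM. The transactivator Ciita switches the whole group on, through factors bound to conserved X and Y boxes of the promoters. B cells, dendritic cells and many macrophages make these molecules without a stimulus. Endothelial cells and fibroblasts are known to make them when exposed to interferon gamma, and mouse T cells are not known to make them.

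A cell entered a gate with UMIs of at least 3 markers of its class and of at most 1 marker of any other class, and no member gene was a marker. Genes kept out of the gates were used to check them. Dcn, a fibroblast matrix gene, stood at 6333 to 8313 CPM in the fibroblast gates of the 4 libraries. It stood at no more than 478 CPM in any other gate, the highest being AS macrophages. The collagen genes separated the gates less. Col1a2 stood at 1252 to 8483 CPM in fibroblasts and at up to 833 CPM elsewhere, and Col3a1 at 1678 to 11863 CPM in fibroblasts. Col3a1 reached 1304 CPM in Healthy smooth muscle cells and 1174 CPM in AS macrophages, against 34.5 to 82.3 CPM in macrophages of the other libraries. Acta2, an actin of smooth muscle, stood at 14679 to 23198 CPM in the smooth muscle gates and Vwf, a clotting protein of endothelium, at 256 to 676 CPM in the endothelial gates. Acta2 stood at 311 to 723 CPM in the endothelial gates too, above Vwf in each library but Healthy. Of the lymphatic check genes, Nts stood at 385 to 2744 CPM in the lymphatic gates and at no more than 205 CPM elsewhere. Pdpn stood at 67.7 to 215 CPM there and at 55.0 to 97.3 CPM in fibroblasts. Lyz2, the lysozyme of myeloid cells, stood at 4690 to 19668 CPM in the macrophage gates, which held 29, 81, 92 and 16 cells in the library order above. Neutrophils, which share Lyz2, had a gate of their own.

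The promoters of the members are shown because the conserved boxes mark genes under common control and because the H2-DMb1 and H2-DMb2 promoters, nearly the same in their boxes, belong to genes that differed between cell types below. RefSeq (GRCm38.p6) promoters of 7 of the 10 members are described, and the 150 bases before the start site were searched on both strands. No entry was found for H2-Ab1 and Ciita, and the promoter of Cd74 was left out. The letters sought were AAC, then any 3 bases, then TGATG for the X box and GATTGG for the Y box, and in the sequences, each written 5′ to 3′ on the strand of the gene, capitals mark the matches on that strand.
H2-Eb1, chr17:34305717-34305866, plus strand: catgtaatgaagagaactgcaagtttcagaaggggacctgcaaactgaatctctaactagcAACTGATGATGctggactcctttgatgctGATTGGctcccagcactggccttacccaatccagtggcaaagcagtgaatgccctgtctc
H2-Aa, chr17:34287824-34287973, minus strand: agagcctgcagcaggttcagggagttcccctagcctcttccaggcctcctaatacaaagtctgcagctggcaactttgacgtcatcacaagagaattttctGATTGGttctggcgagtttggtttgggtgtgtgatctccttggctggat
H2-DMb1, chr17:34153041-34153190, plus strand: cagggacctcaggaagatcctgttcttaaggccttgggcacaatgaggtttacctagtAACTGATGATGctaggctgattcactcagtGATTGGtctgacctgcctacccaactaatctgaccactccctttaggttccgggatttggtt
H2-DMb2, chr17:34145099-34145248, plus strand: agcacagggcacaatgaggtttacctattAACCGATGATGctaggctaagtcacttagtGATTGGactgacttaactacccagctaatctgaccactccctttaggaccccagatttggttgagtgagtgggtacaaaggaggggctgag

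The X letters lay in 111 of 32851 promoters (0.338%) and the Y letters in 3595 (10.9%). Both, with the Y box at most 40 bases after the X box, lay in 5 promoters, those of H2-Eb1, H2-DMb1, H2-DMb2, H2-Ob and 1700048F04Rik. The X letters were chosen after the members' promoters had been read, so their match to members is a description. H2-Aa and H2-Oa held the Y letters alone and the windows of H2-DMa held neither. From X to Y there were 18 bases in H2-Eb1, 19 in both H2-DMb1 and H2-DMb2 and 16 in H2-Ob.

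Macrophages of the AS library had almost no class II RNA, whereas those of the other libraries had about as much as B cells. The 3 alpha and beta chains (H2-Aa, H2-Ab1 and H2-Eb1) together stood at 18255 CPM (17152 to 19410) in macrophages of the library labelled Healthy, from 1021 UMIs. In AS macrophages they stood at 99.4 CPM (56.8 to 161), from 16 UMIs in 81 cells. MTZ-treated macrophages had 10592 CPM (10220 to 10973) from 3068 UMIs, and MTZ-preventive ones had 12123 CPM (11019 to 13308) from 442 UMIs in 16 cells. In MTZ-treated macrophages 5 cells held 40.5% of the UMIs, with 574 in 1 cell, and 1 MTZ-preventive cell held 172 of the 442. Without cells that had a UMI of a dendritic cell marker, 12 MTZ-preventive cells were left, with 177 UMIs of the chains (9875 CPM). The same cut gave 16640 CPM in Healthy, 115 CPM in AS and 12784.5 CPM in MTZ-treated macrophages. Cd209a, a dendritic cell marker, had 6 UMIs in MTZ-preventive macrophages and none in those of the other libraries. The 3 libraries other than AS did not come near its level, and B cells stood at 9131 to 13224 CPM in all 4, the AS library included.

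**Figure D1:**
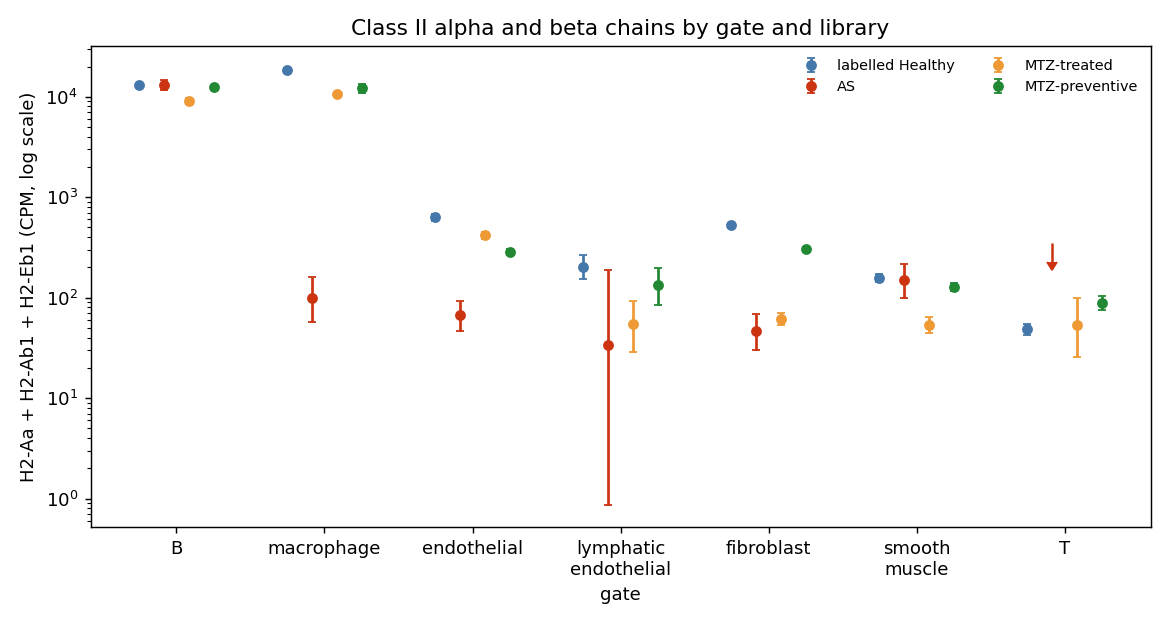
Summed level of H2-Aa, H2-Ab1 and H2-Eb1 (CPM, log axis) in each gate, with 1 point per library and bars for the 95% limits of counting error. The B cell points lie between 9131 and 13224 CPM in all 4 libraries, the AS macrophage point lies at 99.4 CPM against 10592 CPM or more in the other macrophages, and the arrow for AS T cells marks the level that 3 UMIs would give, as none was counted in 6 cells.

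AS against Healthy macrophages gave a log2 ratio of -7.52 (-8.33 to -6.81), and MTZ-treated against AS macrophages one of 6.74 (6.03 to 7.54). The MTZ-preventive gate, at 16 cells, was under the minimum of 20 cells for a ratio. These sizes depended on which cells were kept. With looser limits on UMIs and mitochondrial RNA, under which doublets were called anew, the log2 ratios were -4.04 and 3.38, and over all deposited barcodes, doublets included, they were -5.34 and 4.42.

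Doublet calls removed many macrophages of the MTZ-preventive library and a smaller part of those of the library labelled Healthy. In the latter, 15 of 44 barcodes of the gate were called as doublets, at 18528 CPM of the chains. The AS library lost 1 of 82 and the MTZ-treated library 3 of 95. With doublets kept, AS against Healthy gave a log2 ratio of -7.30. Of the 54 MTZ-preventive barcodes of the gate that passed the limits, 38 were called as doublets and left out, and their class II chains stood at 8153 CPM. With them the MTZ-preventive macrophages had 8815 CPM, and the log2 ratio to AS was 6.24. Over all deposited barcodes of the macrophage gate, the class II chains stood at 17660 CPM in 63 Healthy, 435 CPM in 258 AS, 9285 CPM in 186 MTZ-treated and 8917 CPM in 68 MTZ-preventive barcodes. Within the looser limits, AS barcodes with at most 1000 UMIs stood at 850 CPM in 175 barcodes.

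Counted cell by cell, the chains were present in most Healthy and MTZ-preventive macrophages, in part of the MTZ-treated ones and in few AS cells. At least 3 UMIs of the chains were found in 26 of 29 Healthy, 2 of 81 AS, 46 of 92 MTZ-treated and 12 of 16 MTZ-preventive macrophages. The MTZ-treated macrophages were split, since 43 cells had 10 or more UMIs, 3 cells had 3 to 9 and 46 cells had 0 to 2. No AS macrophage had 10 or more, and 3 cells of 81, the limit taken for a count of 0, would be 3.70%. Over all deposited AS barcodes none of 258 did, where the highest cell had 9, at a median of 815.5 UMIs per barcode. At least 3 UMIs of the chains were found in 20 of these 258, against 53 of 63 Healthy, 65 of 186 MTZ-treated and 43 of 68 MTZ-preventive barcodes. After thinning each cell to 1000 UMIs, 89.7% of Healthy, 11.1% of AS, 58.7% of MTZ-treated and 75.0% of MTZ-preventive macrophages had a UMI of the chains (93.1%, 14.8%, 62.0% and 87.5% unthinned). T cells, the background, had one in 3.69%, 1.98% and 2.65% of thinned cells in the libraries other than AS, whose T gate held 6 cells. In the AS library 4 of 40 neutrophils had one after thinning and 5 before, at a median of 1355.5 UMIs per cell against 1345 in AS macrophages. The AS macrophage share was thus near this background.

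**Figure D2:**
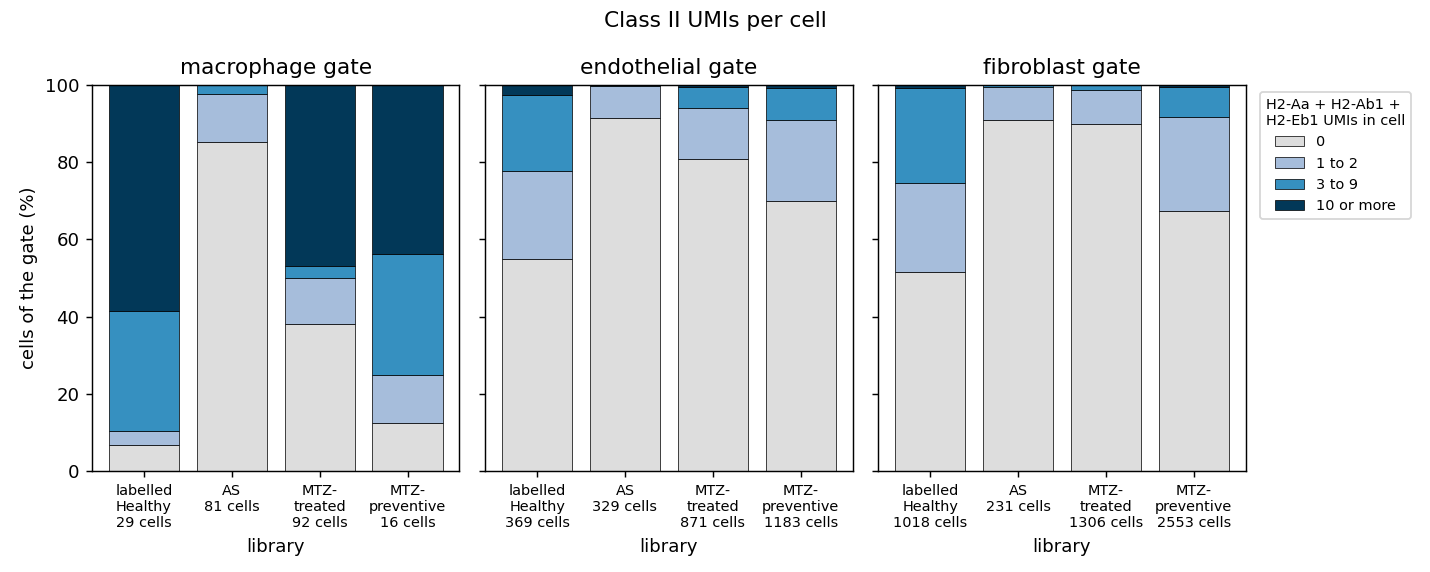
Share of cells (%) by the number of H2-Aa, H2-Ab1 and H2-Eb1 UMIs in the cell, for 3 gates and 4 libraries with the number of cells below each bar. Macrophages of the MTZ-treated library split into 43 cells with 10 or more UMIs and 46 with 0 to 2, and no AS cell of the 3 gates reached 10.

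The MTZ-treated macrophages with and without class II both carried macrophage genes, some of them in different amounts. C1qb, a complement subunit made by macrophages, stood at 5105 CPM in the 43 cells with 10 or more UMIs of the chains and at 5690 CPM in the 46 cells with 0 to 2. Trem2, a lipid receptor of foam cells, stood at 416 and 1251 CPM, Spp1 (osteopontin) at 2633 and 6582 CPM, and Lyz2 at 24854 and 12176 CPM. Mmp12, an elastase of plaque macrophages, stood at 2233 and 2275 CPM and Cd68 at 585 and 567 CPM, each with overlapping limits. Ccr2, a chemokine receptor of monocytes, had 17 UMIs (131 CPM) in the first set and none in the second, and Ms4a7, a gene of mature macrophages, stood at 208 and 809 CPM. Of 8 dendritic cell markers, 5 had no UMI in either set, Flt3, Xcr1, Clec9a, Cd209a and Ccr7, and Itgax stood at 208 and 159 CPM. These 2 sets were cut by the chains themselves, so their difference in class II genes is no result.

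The macrophages differed in kind between libraries. Mmp12 stood at 17.9 CPM in Healthy, 1503 CPM in AS, 2254 CPM in MTZ-treated and 27.4 CPM in MTZ-preventive macrophages, and Spp1 at 0, 19253, 4706 and 27.4 CPM. The MTZ-preventive values rested on the doublet call, since with doublets kept they were 1195 CPM for Mmp12 and 5946 CPM for Spp1. Among cells with at least 2 C1q genes and with Mmp12 or Trem2, at least 3 UMIs of the chains were found in 8 of 8 Healthy, 2 of 64 AS and 26 of 59 MTZ-treated cells. Among C1q cells with neither gene the counts were 16 of 19, 0 of 6 and 16 of 28. Among these 3 libraries AS was the low one in both kinds, though only 6 AS cells were of the second kind. The kinds were not matched between libraries, since Healthy macrophages held 1 UMI of Mmp12 in all. Of cells with fewer than 2 C1q genes, 2 of 2 Healthy, 0 of 11 AS, 4 of 5 MTZ-treated and 2 of 2 MTZ-preventive cells had at least 3 UMIs. Whether the kind of macrophage accounted for the low AS level was not tested. The MTZ-preventive library kept 3 cells of the first kind and 11 of the second, of which 0 and 10 had at least 3 UMIs.

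Each of the 3 chains was lowest in AS macrophages. H2-Aa, the alpha chain of the A molecule, stood at 5704, 37.3, 2886 and 4087 CPM in macrophages, in the order Healthy, AS, MTZ-treated and MTZ-preventive. H2-Ab1, its beta chain, stood at 6204, 31.1, 3825 and 4800 CPM. H2-Eb1, the beta chain of the E molecule, stood at 6347, 31.1, 3880 and 3237 CPM, and its partner H2-Ea is not among the genes of the matrices. In AS macrophages the 3 chains rested on 5 or 6 UMIs each.

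Cd74, the invariant chain, was the most abundant member in macrophages by UMIs. It stood at 18291 CPM (17187 to 19447) in Healthy, 199 CPM (136 to 281) in AS, 13468 CPM (13048 to 13897) in MTZ-treated and 14619 CPM (13404 to 15915) in MTZ-preventive macrophages. AS was again the low library, with a log2 ratio to Healthy of -6.52 (-7.08 to -6.02), and MTZ-treated against AS gave 6.08 (5.58 to 6.63).

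Of the peptide exchange chains, H2-DMa and H2-DMb1 were also lowest in AS macrophages. H2-DMa stood at 662, 12.4, 362 and 411 CPM, from 37, 2, 105 and 15 UMIs. H2-DMb1 stood at 393, 31.1, 217 and 466 CPM, from 22, 5, 63 and 17 UMIs. H2-DMb2 had 0, 0, 2 and 1 UMIs, and the DO chains were as rare, with 2, 0, 5 and 0 UMIs of H2-Oa and 1, 0, 1 and 0 of H2-Ob. At these counts no order of the libraries can be read for the last 3 genes.

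**Figure D3:**
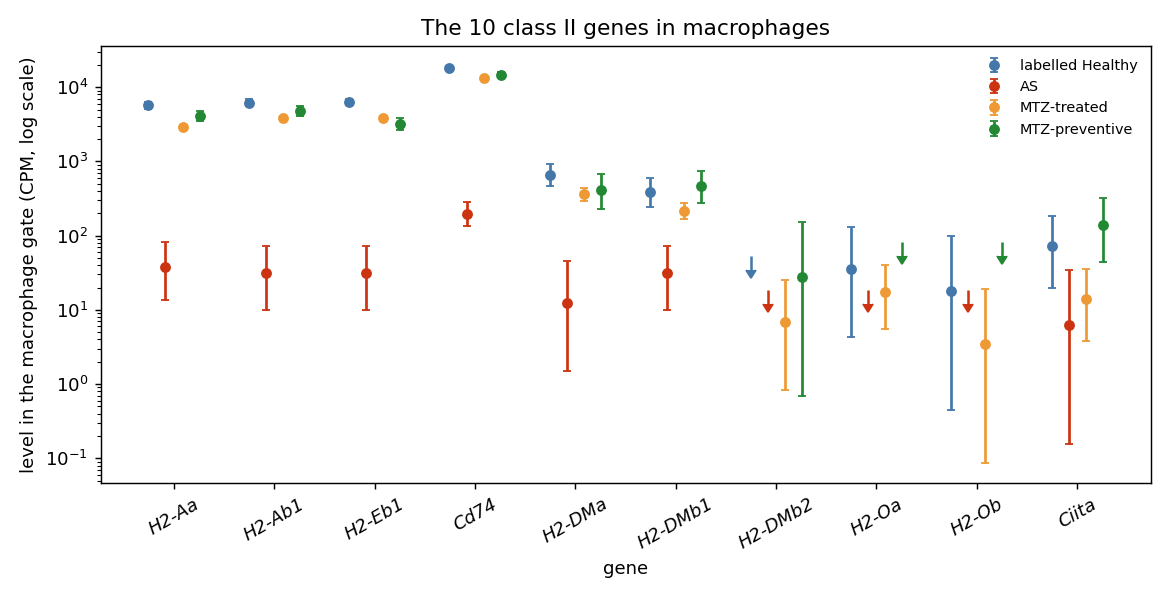
Level of each of the 10 genes in the macrophage gate (CPM, log axis), with 1 point per library and bars for the 95% limits of counting error. Arrows mark the level that 3 UMIs would give where none was counted. The AS points of H2-Aa, H2-Ab1, H2-Eb1 and Cd74 lie at 31.1 to 199 CPM, and H2-DMb2, H2-Oa and H2-Ob rest on 5 UMIs or fewer in every library.

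Ciita had few UMIs anywhere outside B cells. In macrophages it had 4, 1, 4 and 5 UMIs, or 71.5, 6.21, 13.8 and 137 CPM, and AS against Healthy gave a log2 ratio of -3.53 (-9.15 to -0.19). MTZ-treated against AS gave 1.15 (-2.18 to 6.77), so a difference there was not detectable at this depth. In B cells Ciita had 585 UMIs (109 CPM) in the library labelled Healthy and 96 UMIs (58.9 CPM) in the MTZ-preventive library.

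Set beside all genes, 7 of the 10 members reached 50 CPM in AS or Healthy macrophages and were 2-fold or more lower in AS, where 27.4% of 3720 genes were (23.1% were higher). Of these 7, all but Cd74 reached 50 CPM in Healthy macrophages alone and so had to be lower in AS, and the count is a description. Against AS, 6 members reached 50 CPM and were 2-fold or more higher in MTZ-treated macrophages, where 10.1% of 3049 genes were (13.4% were lower), all but Cd74 of them through MTZ-treated macrophages alone. The median log2 ratio of all genes was -0.11 in the first comparison and 0.03 in the second.

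Other genes of antigen presentation were read from lists of named genes. Among 6 genes of antigen processing, 4 cathepsins were 2-fold or more higher in AS than in Healthy macrophages, as were 23.1% of 3720 genes. Ctsl, which cuts the invariant chain, stood at 215 CPM in Healthy and 1317 CPM in AS macrophages, and Ctss, which does so too, at 876 and 2801 CPM. Ifi30, a thiol reductase of the same compartments, stood at 268 and 273 CPM, and was the only gene of this list 2-fold or more higher in MTZ-treated than in AS macrophages, at 646 CPM. Ctsl was the only one 2-fold or more lower there, at 590 CPM. Of all 3049 genes in that comparison, 10.1% were higher and 13.4% lower.

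MHC class I, which presents peptides from inside the cell to CD8+ T cells, was lower in AS macrophages by smaller ratios than class II. Of 9 genes, 7 reached 50 CPM and 4 of these were 2-fold or more lower in AS than in Healthy macrophages, as were 27.4% of 3720 genes. H2-K1, a class I heavy chain, gave a log2 ratio of -2.13 (-2.64 to -1.62) and B2m, the shared light chain, one of -1.75 (-2.16 to -1.34). In MTZ-treated against AS macrophages none of 7 was past 2-fold, where 10.1% of 3049 genes were higher and 13.4% lower. H2-K1 stood at 0.80 (0.35 to 1.26) and B2m at 0.60 (0.26 to 0.95).

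Genes of the interferon gamma response and the factors at the class II boxes were read too. Ifng, interferon gamma itself, had no UMI in macrophages of any library. Irf1, a gene of this response, stood at 197, 130, 69.0 and 110 CPM in the order Healthy, AS, MTZ-treated and MTZ-preventive. Of the 7 promoter factors, 2 reached 50 CPM in Healthy or AS macrophages, Rfxap and Nfya, each with 3 UMIs in Healthy, and Rfx5 had none in any library. Cd86, a costimulator of T cells, stood at 143, 24.8, 79.4 and 54.9 CPM in the library order. AS macrophages had 4 UMIs of it, under 50 CPM, so it could enter the counts past 2-fold only as lower in AS. Its log2 ratios were -2.53 (-4.71 to -0.63) for AS against Healthy and 1.68 (0.13 to 3.67) for MTZ-treated against AS.

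Endothelial cells had class II chains at a low level, a small share of that in B cells. The sum stood at 629 CPM (581 to 679) in the library labelled Healthy, 66.8 CPM (46.6 to 93.0) in AS, 418 CPM (388 to 450) in MTZ-treated and 285 CPM (266 to 305) in MTZ-preventive cells. AS was the lowest and none of the limits overlapped. The log2 ratios were -3.23 (-3.77 to -2.74) for AS against Healthy, 2.65 (2.16 to 3.18) for MTZ-treated against AS and 2.09 (1.60 to 2.62) for MTZ-preventive against AS.

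The single chains and Cd74 followed the sum in endothelial cells. H2-Aa stood at 228, 22.9, 115 and 104 CPM and H2-Eb1 at 195, 24.8, 157 and 94.2 CPM. Cd74 stood at 894, 91.7, 444 and 414 CPM, and the limits of Cd74 and H2-Aa in the MTZ libraries overlapped. These 3 and H2-Ab1 were the members that reached 50 CPM, and all 4 were 2-fold or more lower in AS than in Healthy cells (7.57% of 3420 genes, with 5.41% higher). All 4 were as far higher in MTZ-treated than in AS cells (3.02% of 3179, with 6.45% lower) and in MTZ-preventive than in AS cells (2.55% of 3214, with 2.02% lower). All but Cd74 were under 50 CPM in AS cells.

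The UMIs of MTZ-treated endothelial cells were held by few cells. Of 697 UMIs, 356 lay in 4 of 871 cells and 260 in 1 cell. Without cells of 10 or more UMIs the level was 208 CPM (186 to 231) and the log2 ratio to AS 1.64 (1.13 to 2.18), and under looser cell limits the ratio was 1.54. By contrast 82 of 369 Healthy cells, 1 of 329 AS cells and 107 of 1183 MTZ-preventive cells had at least 3 UMIs of the chains, against 51 of 871 MTZ-treated cells. After thinning, 36.0% of Healthy, 6.69% of AS, 15.3% of MTZ-treated and 21.0% of MTZ-preventive endothelial cells had a UMI of the chains (166 of 369, 28 of 329, 166 of 871 and 355 of 1183 cells unthinned).

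Genes of other cells moved with class II in these endothelial cells. Lyz2, Tyrobp and Fcer1g, macrophage genes in no gate, had UMIs in 22 of the 51 MTZ-treated endothelial cells with at least 3 class II UMIs and in 72 of the other 820. In 3 of the 4 cells with 10 or more they had 28 UMIs. At the ratio of MTZ-treated macrophages, the 192 UMIs of these 3 genes would go with 73.0 UMIs of the chains, 10.5% of those counted. In AS endothelial cells the same 3 genes stood higher, at 199 CPM against 115 CPM in MTZ-treated cells, beside fewer class II UMIs. AS macrophages had little class II themselves. At their ratio, the 104 UMIs of these genes in AS endothelial cells would go with 0.62 UMIs of the chains, 1.77% of the 35 counted. Whether RNA or membranes of macrophages in the same droplets gave the class II UMIs was not tested.

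B cell RNA was read in the same way with 7 B genes that were in no gate (Ighm, Ighd, Bank1, Fcer2a, Ly6d, Cxcr5 and Spib), since RNA from B cells would bring their genes in one ratio. B cells of the library labelled Healthy had 568 UMIs of the chains per 100 UMIs of these genes, and endothelial cells had 580, fibroblasts 447 and smooth muscle cells 474. Ighm gave 434 of the 494 UMIs of these genes in T cells of that library. Without Ighm the values were 806 in B cells against 1456, 891 and 729. In the MTZ-preventive library B cells had 599, endothelial cells 340, fibroblasts 739 and smooth muscle cells 254, and without Ighm 915 against 1105, 960 and 668. Fibroblasts and smooth muscle cells of these 2 libraries thus had class II near or below the ratio of their B cells under both sets of genes. Healthy endothelial cells were near it with Ighm and above it without. T cells stood below it, at 50.2 in Healthy and 127 in MTZ-preventive cells, and at 413 and 652 without Ighm. The B cell ratio was thus not kept in the T gate, and nearness to it does not settle where the class II UMIs came from.

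In the MTZ-treated library the 5 gates stood above the ratio of its B cells, endothelial cells and macrophages the furthest. Fibroblasts had 1115 per 100 and smooth muscle cells 632, and without Ighm 1715 and 1500 against 386 in B cells. Endothelial cells had 7 UMIs of the B genes beside 697 of the chains, or 9957 per 100, whereas B cells of that library had 277 per 100. At the B cell ratio 7 UMIs would go with 19.4 UMIs of the chains, 2.78% of those counted. Macrophages stood above the ratio too, at 4641 per 100 in Healthy, 18047 in MTZ-treated and 22100 in MTZ-preventive cells, with 22, 17 and 2 UMIs of the B genes. AS macrophages had 16 UMIs of the chains and 13 of the B genes, all 13 of Ighm. In the AS library endothelial cells had 250 per 100, fibroblasts 240 and smooth muscle cells 933, against 349 in B cells. Without Ighm the values were 700, 480 and 2800 against 500. The AS stromal ratios rested on 14, 10 and 3 UMIs of the B genes.

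**Figure D4:**
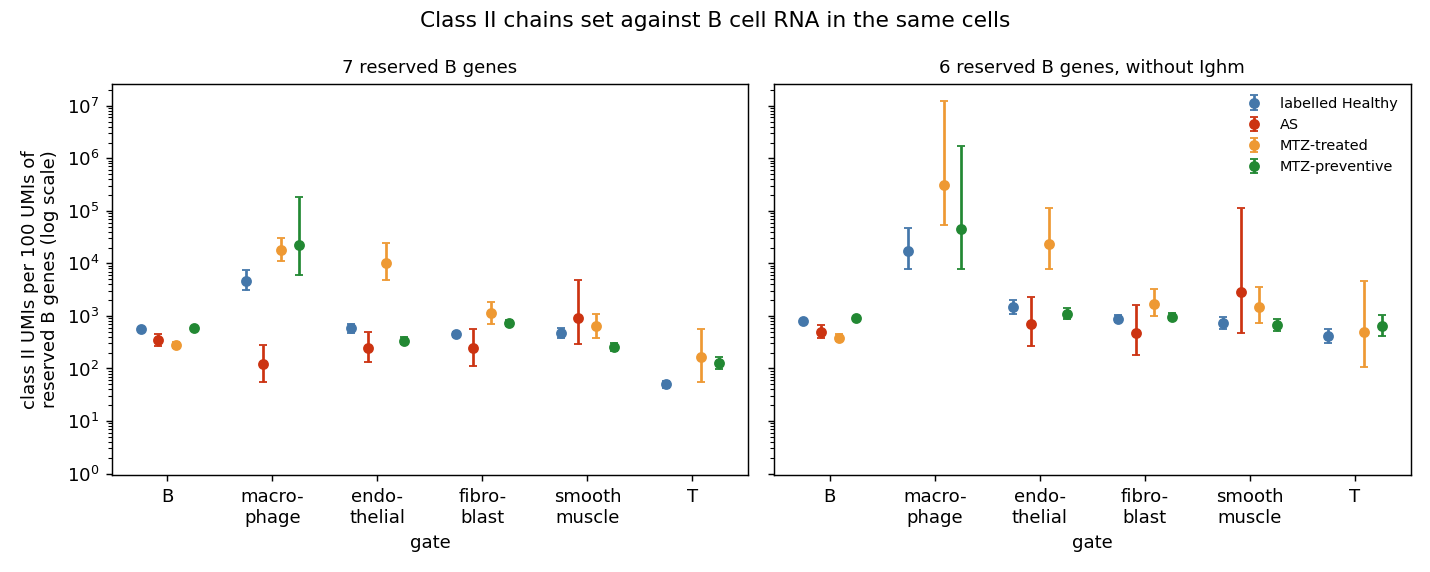
Class II chain UMIs per 100 UMIs of B cell genes that are in no gate (log axis), by gate and library, with 7 such genes at left and without Ighm at right. Bars are 95% limits of counting error, and points with 0 UMIs on either side are left out. Fibroblasts and smooth muscle cells of the libraries labelled Healthy and MTZ-preventive lie near or below the B cell points, the lowest being MTZ-preventive smooth muscle cells at left (254 against 599). Macrophages other than AS and MTZ-treated endothelial cells lie far above the B cell points.

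Barcodes with a B cell receptor contig gave a further count. They were 17 of 369 endothelial cells, 43 of 1018 fibroblasts and 21 of 624 smooth muscle cells in the library labelled Healthy, against 4 of 1627 T cells. In the same order of gates the MTZ-preventive library had 23 of 1183, 29 of 2553 and 16 of 960, against 5 of 641 T cells. The AS library had 1 of 329, 2 of 231 and 0 of 79, and the MTZ-treated library 1 of 871, 4 of 1306 and 1 of 783. By these contigs B cell RNA was most frequent in the Healthy stromal gates, at 3.37 to 4.61% of cells. MTZ-preventive fibroblasts, at 1.14%, were near T cells of that library (0.780%) and AS fibroblasts (0.866%). B cells were most frequent in the libraries labelled Healthy and MTZ-preventive, at 2633 cells (23.7% of those kept) and 825 cells (5.82%), while the AS library had 11. How much of the class II difference between libraries came with B cell RNA was not tested, for either comparison with AS.

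Endothelial cells were also divided by 3 marker genes of vessel type that were chosen after the data had been seen. Cells with Rgcc, a gene of capillary endothelium, had 211 CPM of the chains in Healthy, 45.3 CPM in AS, 136 CPM in MTZ-treated and 231 CPM in MTZ-preventive cells. Cells with Ackr1, a chemokine receptor of venules, had 891, 105, 296 and 223 CPM. Cells with Gja5, a connexin of arterial endothelium, had 910, 197, 230 and 340 CPM. The AS values rested on 12, 4 and 5 UMIs, and in the cells with Ackr1 or Gja5 their limits overlapped those of both MTZ libraries. Cells with none of the 3 genes had 1116, 81.7, 644 and 419 CPM. They held 372 of the 655 UMIs in Healthy, 17 of 35 in AS, 553 of 697 in MTZ-treated and 394 of 840 in MTZ-preventive cells.

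Fibroblasts had the chains at 523 CPM (497 to 550) in the library labelled Healthy, 46.7 CPM (29.9 to 69.5) in AS, 61.9 CPM (54.0 to 70.5) in MTZ-treated and 302 CPM (289 to 316) in MTZ-preventive cells. The AS and MTZ-treated limits overlapped, and the other libraries stood above both. The log2 ratios were -3.49 (-4.13 to -2.91) for AS against Healthy, 0.41 (-0.20 to 1.08) for MTZ-treated against AS and 2.69 (2.12 to 3.34) for MTZ-preventive against AS. The ratio of MTZ-treated to AS was 1.14 (0.54 to 1.80) with doublets kept and 1.21 under looser limits, so whether it exceeded counting error depended on the cells kept. The first ratio was -4.25 under looser limits and -2.82 with a gate that admits no B marker. After thinning, 42.3%, 6.49%, 7.43% and 25.5% of fibroblasts had a UMI of the chains, in the library order (48.4%, 9.09%, 10.1% and 32.7% unthinned).

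Cd74 in fibroblasts stood at 852, 38.9, 84.1 and 484 CPM, with a log2 ratio of 1.11 (0.46 to 1.84) for MTZ-treated against AS. It was then the only member to reach 50 CPM, in MTZ-treated cells alone, and so had to be higher. It was 2-fold or more higher, as were 3.06% of 2776 genes (4.68% were lower). In AS against Healthy fibroblasts 4 members reached 50 CPM and were 2-fold or more lower (8.24% of 2936, with 5.28% higher). These 4 were as far higher in MTZ-preventive than in AS cells (3.18% of 2769, with 2.17% lower), all 4 of them under 50 CPM in AS cells. T cells gave 48.3 CPM of the chains in Healthy, 53.6 CPM in MTZ-treated and 89.4 CPM in MTZ-preventive cells. In CPM the AS and MTZ-treated fibroblast levels were near that background. By cells the MTZ-treated fibroblasts stood above it, as 89.9% of them and 96.0% of T cells of that library had no UMI of the chains. The MTZ-treated T level rested on 10 UMIs in 101 cells. The AS T gate held 6 cells and gave no background of its own.

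In smooth muscle cells a difference in the chains between AS and Healthy was not detectable at this depth. The chains stood at 156 CPM (143 to 171) in Healthy, 148 CPM (98.6 to 214) in AS, 53.1 CPM (44.0 to 63.5) in MTZ-treated and 128 CPM (117 to 141) in MTZ-preventive cells. MTZ-treated was the low library here, near the T cell level of that library given above, with a log2 ratio to AS of -1.48 (-2.08 to -0.83). The AS level rested on 28 UMIs in 79 cells, 22 of them in 5 cells. Of these 5 cells, 3 had UMIs of Lyz2, Tyrobp or Fcer1g, as did 6 of the other 74. After thinning, 21.2%, 12.7%, 6.39% and 16.0% of smooth muscle cells had a UMI of the chains, in the library order (26.3%, 12.7%, 9.20% and 22.0% unthinned). MTZ-preventive against AS gave -0.21 (-0.76 to 0.40) and AS against Healthy -0.08 (-0.68 to 0.47). The last value went from -1.25 under looser limits to 0.88 with no B marker admitted, and MTZ-treated against AS was -0.56 (-1.02 to -0.07) under looser limits.

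In smooth muscle none of 4 members that reached 50 CPM was past 2-fold in AS against Healthy (7.19% of 3185 genes were higher and 10.4% lower). Both members that reached it in MTZ-treated or AS cells, H2-Aa and Cd74, were 2-fold or more lower in MTZ-treated cells (7% of 3087, with 6.51% higher), and H2-Aa reached 50 CPM in AS cells alone and so had to be lower. Neither was past 2-fold in MTZ-preventive against AS cells (6.63% of 3120 were higher and 4.9% lower). Cd74 stood at 248, 164, 55.3 and 186 CPM, with a log2 ratio of -0.59 (-1.16 to -0.08) for AS against Healthy.

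Lymphatic endothelial cells were too few for ratios, with 58, 11, 61 and 62 cells. The chains had 54 UMIs (204 CPM, 153 to 266) in Healthy, 1 UMI (33.9 CPM) in AS, 13 UMIs (54.5 CPM, 29.0 to 93.2) in MTZ-treated and 23 UMIs (133 CPM, 84.2 to 199) in MTZ-preventive cells. No cell had 10 or more UMIs. Cd74 had 77, 0, 33 and 35 UMIs, and the other 6 members had at most 2 UMIs each in any library.

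Across the gates the order of levels was not the same in each library. In the library labelled Healthy it ran from macrophages over B cells, endothelial cells, fibroblasts, lymphatic cells and smooth muscle cells to T cells, and only the limits of neighbouring lymphatic and smooth muscle cells overlapped. In the AS library B cells stood alone at 13224 CPM, and the limits of macrophages overlapped those of every other gate outside B cells. The MTZ-treated order was macrophages, B cells and endothelial cells, with the limits of lymphatic cells, fibroblasts, smooth muscle cells and T cells overlapping below them. In the MTZ-preventive library the limits of macrophages and B cells overlapped, as did those of fibroblasts and endothelial cells, and those of lymphatic and smooth muscle cells.

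Which DM beta gene was counted differed between cell types. H2-DMb1 had 485 and H2-DMb2 had 2085 UMIs in B cells of the library labelled Healthy, so H2-DMb1 made up 18.9% (17.4 to 20.4). In macrophages it made up 22 of 22 UMIs in Healthy, 5 of 5 in AS, 63 of 65 in MTZ-treated and 17 of 18 in MTZ-preventive cells. AS B cells had 2 of 10 UMIs, and those of the MTZ-treated and MTZ-preventive libraries had 25.8% and 15.3%, so the limits of macrophages and B cells did not overlap in any library but AS.

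**Figure D5:**
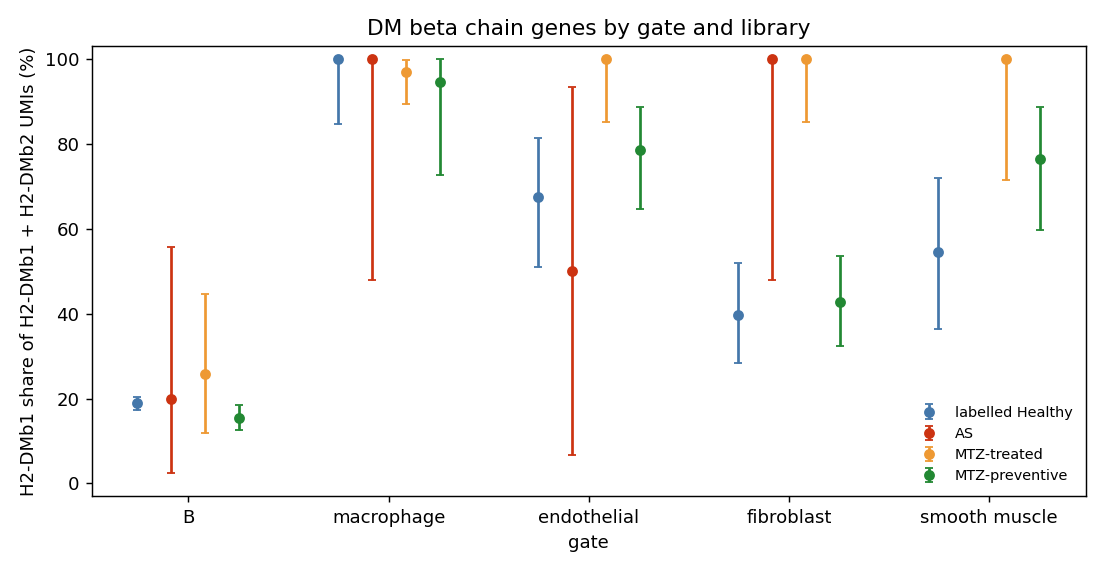
Share of H2-DMb1 among the UMIs of both DM beta genes (%), by gate and library, with 95% Clopper-Pearson limits and gates without a UMI left out. B cell points lie at 15.3 to 25.8% and macrophage points at 94.4% or above, and the points of endothelial cells, fibroblasts and smooth muscle cells lie above those of B cells.

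The other gates lay between B cells and macrophages or with the macrophages. In MTZ-treated endothelial cells H2-DMb1 had 23 of 23 UMIs, in fibroblasts 23 of 23 and in smooth muscle cells 11 of 11. In the library labelled Healthy the share was 67.5% (50.9 to 81.4) in endothelial cells, 39.7% (28.5 to 51.9) in fibroblasts and 54.5% (36.4 to 71.9) in smooth muscle cells, all above that of its B cells. MTZ-preventive endothelial cells had 78.4% (64.7 to 88.7) and fibroblasts 42.7% (32.3 to 53.6). The genes are near copies that lie next to each other, chr17:34153191-34160229 for H2-DMb1 and chr17:34143229-34151553 for H2-DMb2, and how the counting split reads that fit both is uncertain.

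The DO chains separated B cells from macrophages in the same way. H2-Oa and H2-Ob together had 7.26 UMIs per 100 UMIs of the alpha and beta chains in B cells of the library labelled Healthy and 5.70 in those of the MTZ-preventive library. Macrophages had 0.29, 0, 0.20 and 0 per 100. Healthy endothelial cells had 4.43, fibroblasts 6.14 and smooth muscle cells 6.12, between those values, and MTZ-treated endothelial cells had 1.29. H2-DMa differed less, at 2.91 per 100 in Healthy B cells and 3.62 and 3.42 in Healthy and MTZ-treated macrophages.

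T cells of the library labelled Healthy had 207 UMIs of H2-DMa beside 248 of the alpha and beta chains, or 83.5 per 100 against 2.91 in B cells, and 80 of H2-Oa and 69 of H2-Ob. Their H2-DMa level was 40.3 CPM, and MTZ-preventive T cells had 41.1 CPM, or 46.0 per 100. H2-DMb1 and H2-DMb2, the partners of H2-DMa, had 5 and 7 UMIs there.

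The genes most like the chains in level over the 18 points of gate and library outside B cells with at least 20 cells were ranked by Pearson's r of log2(CPM + 10) among 6050 genes. They were A630001G21Rik (0.93), Ppfia4 (0.90), Hpgd (0.90), Il21r (0.90), Clec4b1 (0.89), Clec4a1 (0.89), Lilra5 (0.89), Mgl2 (0.89), Lyz1 (0.89) and Gmip (0.88). Of the members, Cd74 had 0.99, H2-DMa 0.94, H2-DMb1 0.88, H2-Oa 0.88, Ciita 0.82, H2-Ob 0.60 and H2-DMb2 0.23. The Healthy and MTZ-treated macrophage points lie far above the rest, the points share libraries, and A630001G21Rik, Il21r, Lilra5 and Gmip reached no more than 53.6 CPM, which is 3 UMIs in Healthy macrophages.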

How the data were processed

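Cells of the aorta were profiled by 10x Genomics 5′ sequencing in 4 gene expression libraries, 1 per group, with B and T cell receptor libraries of the same cells. The authors aligned and counted the reads with Cell Ranger 5.0.0 and STAR on mm10, per the file headers and the submitters' processing notes, and deposited raw counts of UMIs per gene and barcode (42235505, 7617682, 26196680 and 50769911 UMIs in the order Healthy, AS, MTZ-treated and MTZ-preventive). Receptor files were used only for which barcodes had a contig. Other columns, the contigs' own read and UMI counts as deposited by the authors, were not used.

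Barcodes were kept by the study's limits: over 200 genes, over 1000 UMIs, log10 genes over log10 UMIs above 0.7, under 10% mitochondrial and under 5% red blood cell UMIs. Doublets were called per library by simulating 2 per cell, and the top 0.8% per 1000 cells were removed (1218, 39, 416 and 2130 cells). UMIs were summed per gate and library and scaled to 1e6 (CPM). The 95% limits of a CPM are exact Poisson limits, those of a ratio come from the exact binomial of its counts, and those of a share are Clopper-Pearson limits, and a count of 0 allows up to 3 UMIs. They cover counting error only. Ratios needed 20 cells in both libraries. The share of genes past 2-fold was taken on CPM + 1, over genes that reached 50 CPM in one library or both. Genes on several lines (38 symbols) were summed. All 10 members and lists of genes around them are named, with the 10 most like genes. Members and lists were chosen with earlier results of these data known. The limits of ratios, the calls past 2-fold and the gates were tested on simulated data, and the other steps were not. Alternatives were looser cell limits (over 500 UMIs, under 20% mitochondrial), doublets kept, 2 other gates, removal of cells with B genes or contigs or with dendritic markers, TMM factors, other totals and means over cells. The tools were edgeR 4.0.16 (TMM) in R 4.3.3 and, in Python 3.11.15, scikit-learn 1.9.0, pandas 2.3.3, matplotlib 3.10.9, scipy 1.17.1 and numpy 2.4.6.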

Additional observations from a re-analysis of the deposited data

Results flagged for a closer look

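In smooth muscle cells the alpha and beta chains were lower in the MTZ-treated than in the AS library, with a log2 ratio of -1.48, whereas in macrophages and endothelial cells the same comparison gave 6.74 and 2.65. The direction was opposite between cell types of the same 2 libraries, beyond counting error in each. The difference between cell types was not tested, since each group had 1 library. The AS smooth muscle value rested on 28 UMIs, 22 of them in 5 cells, and limits of counting error do not cover such clustering. Smooth muscle cells with 0 to 2 UMIs of the chains stood at 33.2 CPM in AS and 29.6 CPM in MTZ-treated cells.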

How the results depend on the processing

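Of 100 alternative values for 11 ratios of the alpha and beta chains, 82 lay within the 95% limits of the reported value and 18 outside, and none reversed a ratio whose limits excluded 0. Under looser cell limits, with doublets called anew, the log2 ratios were -4.04 (AS against Healthy) and 3.38 (MTZ-treated against AS) in macrophages, 1.57 (MTZ-preventive against AS) and 1.54 (MTZ-treated against AS) in endothelial cells, -4.25 (AS against Healthy) and 1.21 (MTZ-treated against AS) in fibroblasts, and -1.25 (AS against Healthy) and -0.56 (MTZ-treated against AS) in smooth muscle cells. As means over cells, MTZ-treated against AS was 2.07 in endothelial cells and AS against Healthy -1.23 in smooth muscle cells. With no B marker admitted, AS against Healthy was -2.82 in fibroblasts and 0.88 in smooth muscle cells. Without cells with a B gene or receptor contig it was 0.68 in smooth muscle cells, and where own markers had only to outnumber those of other classes it was -1.10. With doublets kept, MTZ-treated against AS was 1.14 in fibroblasts. Of alternatives chosen after the data had been seen, all deposited barcodes gave -5.34 (AS against Healthy) and 4.42 (MTZ-treated against AS) in macrophages, and leaving out cells of 10 or more class II UMIs gave 1.64 for MTZ-treated against AS in endothelial cells. The causes were not tested. TMM factors and other totals moved none of the 11 ratios past its limits. Without cells with a B gene or contig, Healthy macrophages were under 20 cells and gave no ratio. No paired analysis was possible because each group had 1 library, and no library could be left out in turn. Depth limits Ciita, the DO chains and H2-DMb2 most, and AS macrophages, endothelial cells, fibroblasts and smooth muscle cells had 16 to 35 UMIs of the chains each.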
